A study of Arabidopsis thaliana with 8 samples.

Results

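Signals of 7 probe sets for glucosinolate synthesis genes were followed on 8 Affymetrix ATH1 arrays of Arabidopsis thaliana, out of 22810 probe sets on the array. Each probe set pools the readings of a group of short oligonucleotides that match 1 transcript or a few near-identical ones. The members were taken by their probe set identifiers, with no threshold on a measured value, and the set was proposed with earlier results of these arrays known. Of these, 6 belong to the branch that starts from methionine: 257021_at for BCAT4 (AT3G19710), 249866_at for MAM1 (AT5G23010), 254687_at for CYP83A1 (AT4G13770), 247549_at for MYB28 (AT5G61420), 250598_at for MYB29 (AT5G07690), and 262717_s_at, shared by CYP79F1 (AT1G16410) and CYP79F2 (AT1G16400). The remaining probe set, 253534_at for CYP83B1 (AT4G31500), stands for the branch that starts from tryptophan and serves as the contrast. The platform annotation used here names 1 of the 7 (BCAT4), and for the other probe sets the gene names are those given with the member list.

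The study compared 15B, a mutant obtained from a silenced line with ethyl methanesulfonate, with that line, called the silenced parent here. Both are in the accession Landsberg erecta (Ler), and the parent is homozygous for 1 insert with an added chalcone synthase (CHS) gene that silences the resident copy. Per the labels, seeds spent 3 days at 4 degrees C, plants grew on agar (0.7%) and sucrose (1%) at 22 degrees C under 18 h days, and RNA was taken from total tissue at growth stage 1.04. Each sample pooled 10 plants, and there were 4 biological replicates, giving 4 arrays of 15B and 4 of the silenced parent. The title of the series names hog1, the labels do not say which gene is mutated in 15B, and 15B is a single line. CHS and HOG1 were not analysed here.

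Glucosinolates are sulphur- and nitrogen-containing thioglucosides of the cabbage order that release toxic products when myrosinases cut them in damaged tissue. In the aliphatic branch, methionine is deaminated, lengthened by added carbon units, converted to an aldoxime and oxidised, and then joined to sulphur, glucose and sulphate. HOG1 encodes S-adenosylhomocysteine hydrolase, which returns the product of methylation reactions to homocysteine, from which methionine is rebuilt, so the aliphatic compounds and the methyl cycle draw on the same amino acid. Some of these genes lie side by side in the gene order of TAIR10.1, with 0 genes between CYP79F1 and CYP79F2 on chromosome 1, and 0 between MAM1 and its relative IMS2 and between MYB29 and its relative MYB76 on chromosome 5. CYP83A1 and HOG1 are not neighbours, with 21 genes between them on chromosome 4.

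The deposited signals are linear and had been brought to 1 scale, with a trimmed mean of 100.0 on every array. For actin, the ratio of 3' to 5' probe signal, higher in degraded RNA, was 5.24 ± 0.954 in 15B and 6.61 ± 1.43 in the silenced parent (SD, n = 4 each). The ranges overlapped through parental replicate 4 (4.789) alone, the other parental arrays lying above the highest 15B array (6.471). Mean ratios of GAPDH (1.723 in 15B, 1.935 in the parent) and ubiquitin (3.072 and 3.502) were also lower in 15B, with overlapping ranges. The part of RNA quality in the differences between the lines was not tested. Scanner background lay between 93.7 and 101 on the 15B arrays and between 77.6 and 198 on the silenced parent arrays, the highest value being replicate 4 of the parent. Only 2 of 10 listed leaf markers and 2 of 8 listed root markers had a probe set named for 1 gene. Those leaf markers were bright in both lines. RCA, for Rubisco activase, was at 3477 to 4607 in 15B and 3312 to 3951 in the silenced parent, and LHCB4.1, for a light-harvesting protein, at 3808 to 4445 in 15B and 3598 to 4639 in the silenced parent. The root hair expansin genes EXPA7 and EXPA18 were at 33.2 to 60.9 in 15B and 31.1 to 51.7 in the silenced parent. None of these 4 markers passed the test below (limma, 0 of 4, 0 also at an unadjusted p under the threshold of 0.05). Over all tested probe sets these shares were 6.70% and 21.5%, so 0 of 4 is too small a count to show equal tissue shares.

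Among the aliphatic genes, BCAT4 rose in 15B by 1.27-fold, a call lost in 9 of the 20 alternatives tried, and no other tested member passed. BCAT4 encodes the aminotransferase that removes the amino group of methionine at the entry to chain elongation. Of the 6 aliphatic probe sets, 5 had a mean over the 8 arrays of at least 30 signal units and were tested; 1 rose and 0 fell (limma, Benjamini-Hochberg over all 13822 tested probe sets). Over all tested probe sets 6.70% were called, 3.13% as higher and 3.57% as lower, so 1 of 5 is too small a count to set against that share. The median log2 fold change of the 5 was 0.04, with a range of -0.18 to 0.34, beside a median of -0.03 over all tested probe sets. Arrays of whole plants cannot tell apart more cells that use a gene and more RNA of it per cell.

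The aminotransferase came out above its parental level on every mutant array. BCAT4 signal was 1337.8, 1437.3, 1226.7 and 1336.8 in 15B, against 1149.1, 923.0, 1081.7 and 1061.5 in the silenced parent. All 4 arrays of 15B thus lay above the highest parental array, and over all tested probe sets the groups did not overlap in 13.6%, with 15B higher in 5.58% and lower in 8.07%. The means were 1335 ± 86.0 in 15B and 1054 ± 94.9 in the silenced parent (SD, n = 4 each). On the scale of log2(signal + 10) the difference was 0.34 (SE 0.08, 95% interval 0.16 to 0.52, limma adjusted p = 0.0293). BCAT4 no longer passed after quantile normalization (limma adjusted p = 0.0516), with no filter (0.0541) or with a variance model lacking the trend (0.0650). It also did not pass when replicate 2 (limma adjusted p = 0.0791) or 3 (0.0659) of the silenced parent was left out, or replicate 1 (0.0577), 2 (0.0917) or 4 (0.0649) of 15B. Over all alternatives the log2 fold change stayed between 0.28 and 0.38.

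**Figure D1:**
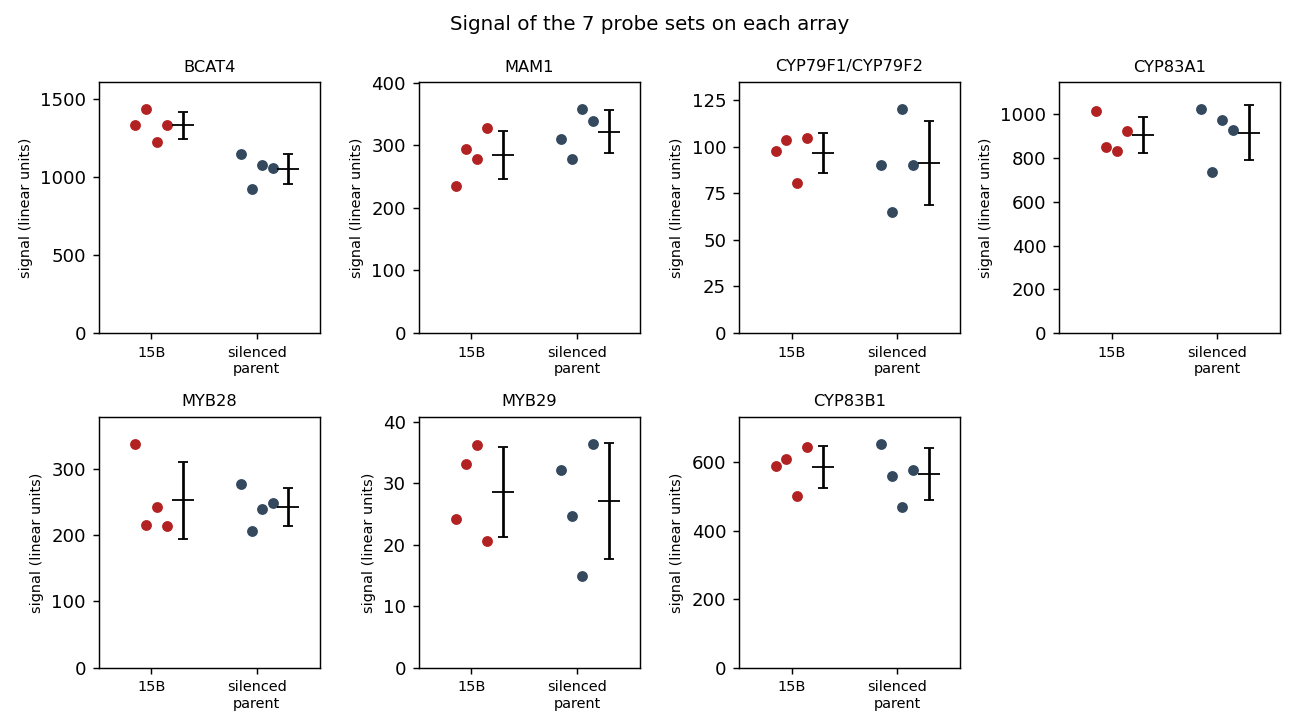
Signal in linear units of the 7 probe sets on each array (points, replicates 1 to 4 from left to right), with the mean and SD of each group (bars, n = 4). BCAT4 is the panel in which the 15B points (1226.7 to 1437.3) lie above all silenced parent points (923.0 to 1149.1); in the other 6 panels the groups overlap.

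MAM1, the other member of chain elongation, encodes methylthioalkylmalate synthase, which condenses the deaminated methionine with acetyl-CoA. Its signal was 235.1, 294.5, 277.7 and 327.9 in 15B, against 310.4, 278.4, 357.4 and 338.6 in the silenced parent. The groups overlapped, although 3 of the 4 arrays of 15B were below the parental mean. The means were 284 ± 38.6 in 15B and 321 ± 34.5 in the silenced parent (SD, n = 4 each), a log2 fold change of -0.18 (SE 0.11, 95% interval -0.41 to 0.06, limma adjusted p = 0.382) that did not pass. The array was designed on another accession, and the MAM locus of Ler is known to be arranged differently, so which MAM transcript gave this signal was not tested.

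Neither probe set for the enzymes that start the core structure passed the test. The CYP79F1/CYP79F2 probe set reads both cytochromes P450 that turn chain-elongated methionine into aldoximes, and the shares of the pair cannot be told apart. It gave 97.5, 103.3, 80.7 and 104.3 in 15B, against 89.9, 65.1, 120.0 and 90.1 in the silenced parent. The 15B arrays lay inside the parental range, and their coefficient of variation was 11.3%, against 24.6% in the silenced parent. The log2 fold change was 0.09 (SE 0.15, 95% interval -0.23 to 0.41, limma adjusted p = 0.769).

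CYP83A1, the P450 that oxidises the aliphatic aldoximes, was at 1017.9, 850.7, 832.8 and 924.1 in 15B, against 1024.0, 735.5, 975.4 and 929.4 in the silenced parent. The 4 arrays of 15B again fell within the parental range. The means were 906 ± 84.2 in 15B and 916 ± 126 in the silenced parent (SD, n = 4 each). The log2 fold change was -0.01 with a 95% interval from -0.24 to 0.22 (limma adjusted p = 0.977), and its sign turned with median centring (0.00). The interval leaves room for changes of a size below that of BCAT4 in either direction.

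The regulators showed no change that passed. MYB28 encodes the main activator of the aliphatic branch, a transcription factor of the R2R3 type. Its signal was 337.1, 215.4, 241.7 and 214.1 in 15B, against 276.1, 206.3, 239.0 and 248.3 in the silenced parent. Replicate 1 of 15B was the highest of the 8, and the other 3 arrays of 15B lay inside the parental range. The log2 fold change was 0.04 (SE 0.14, 95% interval -0.26 to 0.34, limma adjusted p = 0.913), and without replicate 1 of 15B it was -0.11.

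MYB29, a related activator, was dim. It gave 24.2, 33.2, 36.2 and 20.6 in 15B, against 32.2, 24.7, 14.9 and 36.4 in the silenced parent. Its mean of 27.8 over the 8 arrays was under the filter level, so it was not tested in the fit reported here. In a fit of all 22746 probe sets with no filter, in which 3.65% were called, its log2 fold change was 0.08 with a 95% interval from -0.41 to 0.56 (limma adjusted p = 0.914). At this signal a change of the size seen for BCAT4 was not detectable.

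CYP83B1, the P450 that oxidises the tryptophan-derived aldoxime, did not pass either. Its signal was 589.6, 610.9, 502.1 and 643.5 in 15B, against 653.6, 561.0, 469.9 and 577.2 in the silenced parent. The groups overlapped over most of their range, and the log2 fold change was 0.06 (SE 0.11, 95% interval -0.18 to 0.29, limma adjusted p = 0.814).

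Whether any aliphatic probe set moved apart from this contrast was tested on the difference of log2 signals within each array. BCAT4 minus CYP83B1 was 1.17, 1.22, 1.27 and 1.04 in 15B, against 0.80, 0.71, 1.19 and 0.87 in the silenced parent. Replicate 3 of the silenced parent lay among the 15B values, while the other parental arrays were below them. The difference between the lines was 0.28, which did not pass (exact permutation test, two-sided, p = 0.0857, adjusted over the 6 comparisons 0.514). The smallest p that 4 arrays against 4 can give is 0.0286. After adjustment over the 6 comparisons, no probe set could pass unless most of the 6 reached this smallest p. For the other 5 probe sets the differences were -0.23 for MAM1 (exact p = 0.286), 0.04 for CYP79F1/CYP79F2 (0.886), -0.06 for CYP83A1 (0.714), -0.02 for MYB28 (0.971) and 0.02 for MYB29 (0.943). A departure of the aliphatic genes from the tryptophan branch was thus not shown for any of the 6.

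Within the aliphatic branch, BCAT4 was also set against the other members on each array, a comparison chosen after its rise was seen, which in part restates that rise. BCAT4 minus CYP83A1 was 0.39, 0.75, 0.55 and 0.53 in 15B, against 0.16, 0.32, 0.15 and 0.19 in the silenced parent. BCAT4 minus MAM1 lay between 1.99 and 2.46 in 15B, against 1.57 to 1.86 in the silenced parent. In both pairs every array of 15B exceeded every parental array. The differences between the lines were 0.35 for CYP83A1 and 0.52 for MAM1. Both had the smallest possible p (exact permutation p = 0.0286, adjusted over the 5 comparisons 0.0714), and neither passed after adjustment. They could not pass unless another of the 5 also reached the smallest p, so this outcome does not measure their separation. For CYP79F1/CYP79F2 the difference was 0.25 (exact p = 0.0571), for MYB28 0.30 (0.143) and for MYB29 0.26 (0.371), and the groups overlapped in these 3.

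**Figure D2:**
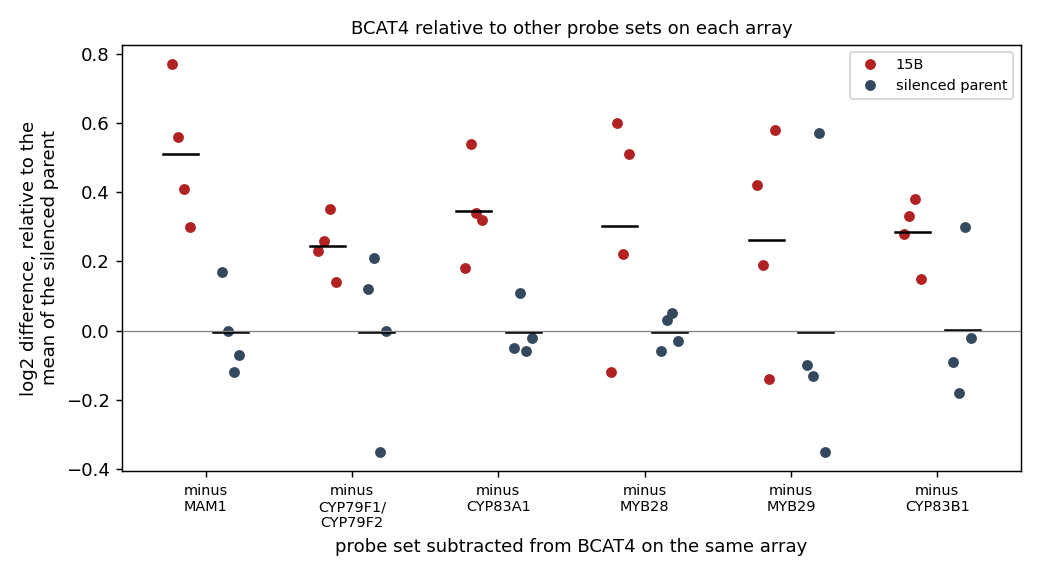
Difference in log2(signal + 10) between BCAT4 and each of the other 6 probe sets on the same array, shown relative to the mean of the silenced parent, with 15B to the left in each pair (points, 4 arrays per line; bars, group means). The points do not overlap for MAM1 (mean shift 0.52) and CYP83A1 (0.35), a comparison chosen after the rise of BCAT4 was seen that did not pass (exact permutation test, adjusted p = 0.0714 for each), and they overlap for the other probe sets. With 4 arrays per line, these could not pass after adjustment unless another aliphatic pair also reached the smallest possible p.

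Set against the other probe sets called higher, the rise of BCAT4 was small, and it was measured at a bright probe set. Of the 432 probe sets called higher in 15B, 409 had a larger fold change, and the median log2 fold change of the 432 was 0.75. These were picked by the call, which favours large changes. Over all 13822 tested probe sets, 783 had a larger log2 fold change than BCAT4, and the median absolute log2 fold change was 0.13. Among the 1194 tested probe sets with a mean signal of at least 500 units, 57 (4.77%) were called higher. The other tested members lay within or near the middle of the distribution, whose quartiles were at -0.16 and 0.10.

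**Figure D3:**
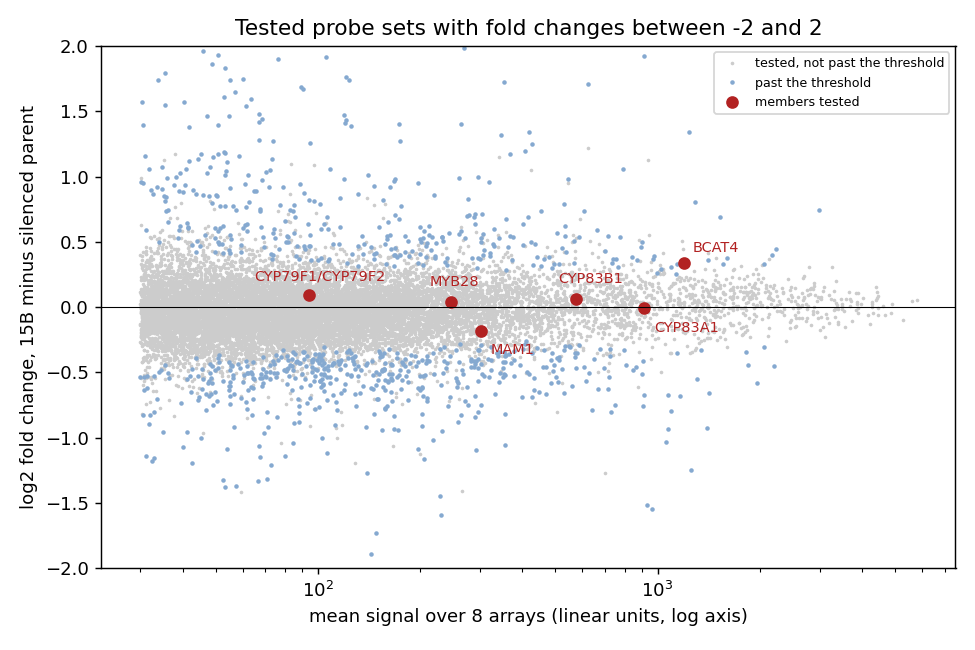
Log2 fold change (15B minus silenced parent) against mean signal over 8 arrays (log axis) for the tested probe sets between -2 and 2, with 85 probe sets outside these limits. Of the 6 members tested (red), BCAT4 at 0.34 lies among the probe sets past the threshold (blue), and the others lie in the grey band.

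Other genes of glucosinolate metabolism were listed by locus, and 11 of the listed loci outside the members had a probe set named for 1 gene, all of which were tested. None of the 11 passed (limma, 0 higher and 0 lower), while 4 had an unadjusted p below 0.05, a level that 21.5% of all tested probe sets reached. Of the 11, 8 had a positive log2 fold change, and the median was 0.19 against -0.03 over all tested probe sets. These 11 are few of the 76 loci of these lists, and the lists were drawn up with earlier results of these arrays known.

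In the core of the pathway, GSTU20, a glutathione transferase gene co-expressed with the aliphatic branch, was at 1706.1, 1605.0, 1326.6 and 1439.5 in 15B, against 1303.7, 1115.3, 1353.1 and 1177.2 in the silenced parent. Only replicate 3 of 15B reached into the parental range, and the log2 fold change of 0.29 (SE 0.09) did not pass (limma adjusted p = 0.0855). UGT74B1, which adds the glucose in both branches, was at 0.28 (limma adjusted p = 0.207), and AT2G31790, the aliphatic glucosyltransferase known as UGT74C1, at 0.15 (0.612). Side-chain genes did not pass either. AOP3, which forms hydroxyalkyl glucosinolates in Ler, was at 0.19 (limma adjusted p = 0.336), and AOP1, a relative with no settled role, at -0.19 (0.424). AT2G25450, the side-chain hydroxylase gene known as GSL-OH, varied widely, at 32.5, 128.0, 119.0 and 239.5 in 15B, against 32.0, 102.6, 44.9 and 89.6 in the silenced parent (log2 fold change 0.72, SE 0.45, limma adjusted p = 0.386).

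The transporters GTR1 and GTR2, which load glucosinolates into the phloem, had fold changes of opposite sign, neither past the threshold. GTR1 was at 252.0, 241.5, 213.9 and 215.4 in 15B, against 202.8, 165.0, 155.1 and 203.9 in the silenced parent. Its groups did not overlap, which held for 1 of the 11 genes, beside 13.6% of all tested probe sets (5.58% with 15B higher). The log2 fold change of GTR1, 0.33 (SE 0.11), did not pass (limma adjusted p = 0.0803). GTR2 was at -0.15 (limma adjusted p = 0.444). Of the bHLH partners of the MYB activators, MYC4 was at 0.45 (limma adjusted p = 0.136) and MYC3 at 0.04. MYC4 passed in 1 of 19 alternatives, the one without replicate 4 of 15B, the lowest array of that line (0.59, limma adjusted p = 0.0494). PYK10, a root beta-glucosidase that cuts glucosinolates, was at 0.00 with 2887 ± 179 in 15B and 2894 ± 249 in the silenced parent (SD, n = 4 each).

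Supply of sulphur and methionine was followed with the same kind of list. Only 4 of 20 loci listed for sulphate assimilation had a probe set named for 1 gene. For methionine metabolism and the methyl cycle it was 5 of 22. On the sulphate assimilation list 1 of 4 tested genes rose and 0 fell, beside 3.13% called higher over all tested probe sets. A count of 1 of 4 is again too small to read against that share. The gene that rose, BGLU28, encodes no assimilation enzyme, and the other 3 genes of the list did not pass. BGLU28, a beta-glucosidase gene known to respond to sulphur shortage, was at 31.1, 54.2, 48.3 and 78.9 in 15B, against 32.9, 16.6, 15.8 and 24.8 in the silenced parent. Replicate 1 of 15B lay below replicate 1 of the parent, and the other 3 arrays of 15B were above all parental arrays. Its log2 fold change was 0.93 (SE 0.23, limma adjusted p = 0.0289). Its parental mean of 22.5 was under the filter level, so it was tested only through its higher signal in 15B. The call was lost with no filter (limma adjusted p = 0.0679) and when any of 5 arrays was left out, namely parental replicates 2 and 3 and 15B replicates 2, 3 and 4 (0.0633 to 0.0915).

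APS3, an ATP sulfurylase gene, was at 143.0, 142.8, 134.5 and 153.6 in 15B, against 134.2, 109.0, 115.1 and 107.3 in the silenced parent. The groups did not overlap, as in 13.6% of all tested probe sets (5.58% with 15B higher). The log2 fold change of 0.28 (SE 0.09) did not pass (limma adjusted p = 0.0897). It passed in 1 of 20 alternatives, the one without replicate 1 of the silenced parent, the highest parental array (0.35, limma adjusted p = 0.0403). APS4, its relative, was at -0.19, and the sulphite reductase gene SIR at 0.06. Of 5 tested genes of methionine metabolism and the methyl cycle 0 passed by limma, while 1 had an unadjusted p below 0.05, beside 6.70% and 21.5% over all tested probe sets. MGL, methionine gamma-lyase, was at 0.44 (limma adjusted p = 0.101), MMT, which methylates methionine, at 0.11, CBL, cystathionine beta-lyase, at 0.04, AT1G72810 at 0.04 and HMT-1, a homocysteine methyltransferase gene, at 0.00.

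**Figure D4:**
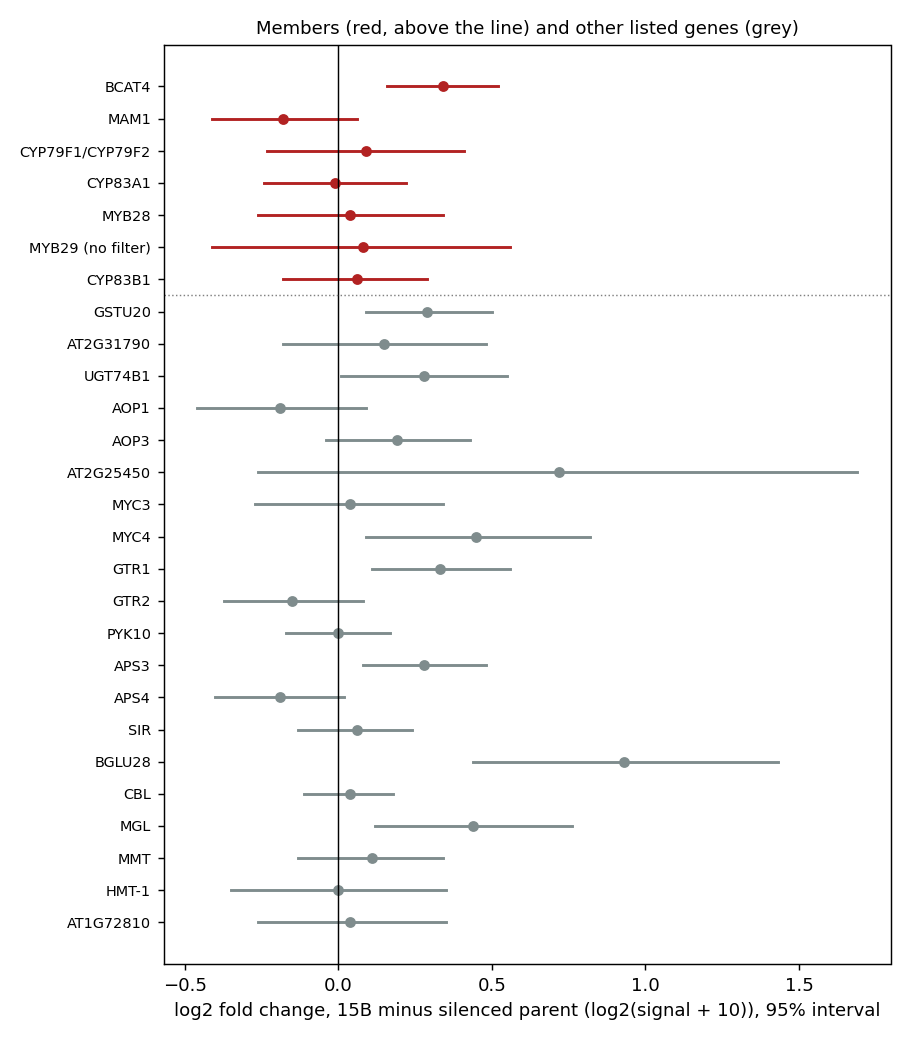
Log2 fold change (15B minus silenced parent) with its 95% interval from limma for the 7 members (red; MYB29 from the fit with no filter) and the 20 other listed genes with a tested probe set (grey). BCAT4 (0.34) passed the adjusted threshold, as did BGLU28 (0.93), which was tested only through its signal in 15B and did not pass with no filter (limma adjusted p = 0.0679); other intervals that leave out 0, such as those of GSTU20 and GTR1, did not after adjustment.

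Across single arrays, replicate 2 of the silenced parent was the lowest of its group for 5 of the 6 aliphatic probe sets, and the lowest of all 8 arrays for 4. It was also the lowest parental array for 6 of the 11 other glucosinolate genes, AOP3 (597.5) and UGT74B1 (219.6) among them, and for 27.9% of all tested probe sets. Its 3' to 5' ratios of actin (8.28) and GAPDH (2.301) were the highest of the 8 arrays, while its ubiquitin ratio (3.50) was below those of parental replicates 1 (3.52) and 3 (3.92). The part of RNA quality in these levels was not tested. Without this array the log2 fold change of BCAT4 was 0.28 and that of CYP79F1/CYP79F2 was -0.04.

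To see which genes varied with the members, each log2 signal was taken relative to its group mean, and the 5 tested aliphatic members were averaged after scaling by their SD over the 8 arrays. All 8 arrays share the deposited scaling and whole-plant RNA. CYP83A1 followed the mean of the other 4 members most closely (Pearson r = 0.881, Spearman rho = 0.714), and MAM1 (0.169 and -0.095) and MYB28 (0.221 and 0.214) least. For each member, r was also taken without the 2 arrays farthest from the median of the mean it was set against. These arrays were found anew for each member. The r of CYP83A1 was then 0.409, and that of BCAT4 fell to -0.242, against 0.773 with all 8, so the likeness rests on a few arrays. Of 7456 other tested probe sets naming 1 gene, the most alike were AT2G41830 (r = 0.979), AT2G16800 (0.976), AT1G68330 (0.950), AT5G66090 (0.948) and AT2G42520 (0.932). They were picked for high values, so their r is a description. For the mean of the 5 members, replicate 2 of the silenced parent and replicate 3 of 15B were farthest from the median. Without these 2 arrays r was 0.845, 0.819, 0.662, 0.634 and 0.187 in the same order. AOP3 came 10th in this order (r = 0.911, rho = 0.833), UGT74B1 45th (0.849 and 0.810) and GSTU20 211th (0.738 and 0.738), while CYP83B1 had an r of 0.115. Without replicate 2 of the silenced parent and replicate 3 of 15B, the r of AOP3 was 0.677, that of UGT74B1 0.398 and that of GSTU20 0.455.

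**Figure D5:**
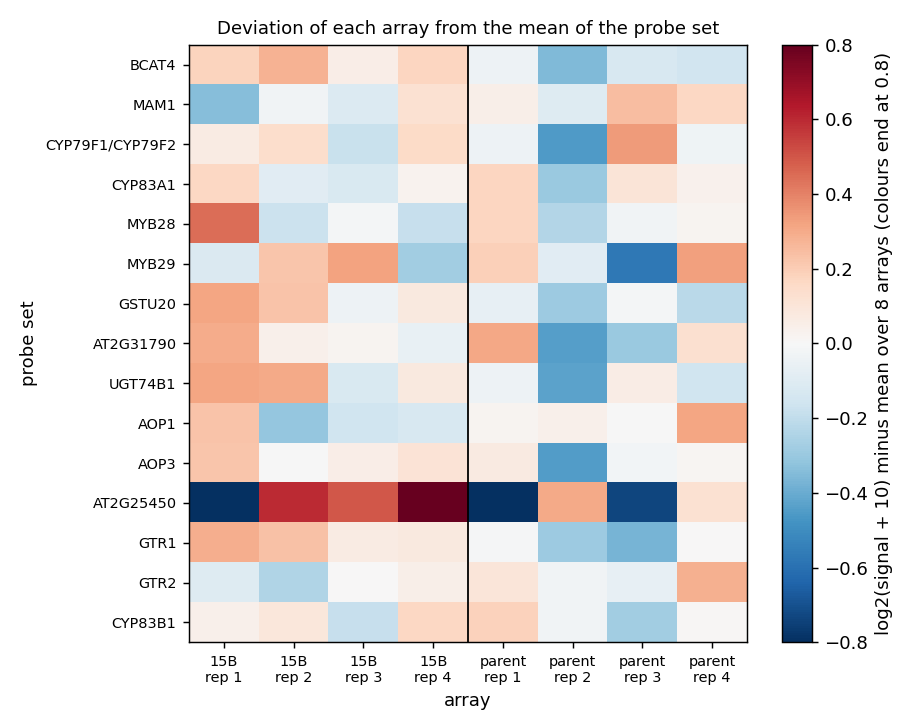
Deviation of log2(signal + 10) on each array from the mean of that probe set over 8 arrays (colour, ending at 0.8), for the 6 aliphatic probe sets, other listed core, side-chain and transport genes, and CYP83B1, with 15B to the left of the line. BCAT4 and GTR1 are the rows in which all 15B arrays exceed all parental arrays, as in 5.58% of all tested probe sets. Replicate 2 of the silenced parent is blue in most aliphatic rows.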

How the data were processed

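Per the labels, biotin-labelled RNA of 8 samples was hybridised to ATH1 arrays. The authors deposited, for every array, 1 linear intensity for each probe set; the summary software is not given in the sources used here. After removal of 64 control probe sets, log2(value + 10) was compared for the 13822 probe sets with a mean of at least 30 (8924 fell below) in limma 3.58.1 under R 4.3.3 (lmFit, eBayes with trend, two-sided, Benjamini-Hochberg, threshold 0.05). Single contrasts used exact permutation tests (scipy 1.17.1). The platform annotation names 1 gene for 13513 probe sets, updated to RefSeq TAIR10.1. Of these steps only the limma fit was run on simulated data, and the outcome is not reported here. All 7 members are described. From each list every gene past the threshold is named, or otherwise up to 3 with the smallest p, and the 5 probe sets most alike. The other tested sulphate and methionine genes were added after their values were seen, to give all tested genes of those lists. Members and lists were chosen with earlier results of these data known. No sequence is printed, since none was provided with the files. Same-numbered arrays had residual correlations of 0.25, -0.01, 0.05 and 0.05 and were not treated as pairs. No 2 arrays shared more than 0.969% of their values. The number of arrays limits the precision. Alternatives tried were pseudocounts of 1 and 30, median centring, quantile normalization, filters of none and 60, eBayes without the trend or robust, array weights, the replicate number as a block, a threshold of 0.01, only _at probe sets, and leaving out each array.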

Additional observations from a re-analysis of the deposited data

Results flagged for a closer look

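In 6 of the 68 groups of 4 values that were examined, 1 array lay far from its replicates; chance gives this in about 1 in 20 groups. No set of the 7 members was among them. AOP1 was at 109.3 in replicate 4 of the silenced parent, against 85.4 to 88.3 in the other replicates. MYC3 was at 56.3 in replicate 2 of 15B, against 85.4 to 88.4. AT1G72810 was at 120.9 in replicate 2 of the silenced parent, against 185.3 to 192.0. Scanner background was 197.77 in replicate 4 of the silenced parent, against 77.57 to 94.32, and its noise was 13.54, against 3.91 to 5.15; without this array BCAT4 kept its call. The scanner software marked 1353 cells as outliers in replicate 2 of 15B, against 403 to 505 in its replicates; leaving this array out, BCAT4 did not pass (limma adjusted p = 0.0917).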

How the results depend on the processing

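Over all tested probe sets, 926 changed, against 392 (231 higher and 161 lower in 15B) at an adjusted p under 0.01. With a replicate block 1078 changed. Whether the replicate numbers pair the arrays is not settled here, and the main fit did not treat them as pairs. Leaving out 1 array gave 513 to 977 (281 to 440 higher, 232 to 537 lower): the total was 513 with parental replicate 3 removed and 615 with 15B replicate 2 removed. The aliphatic count of 1 became 0 with quantile normalization, no filter, eBayes without the trend and an adjusted p under 0.01, and was 0 to 1 when 1 array was left out. The count of 1 among the other listed genes became 0 with no filter, a filter of 60 and an adjusted p under 0.01, and was 0 to 2 when 1 array was left out. With no filter more probe sets were tested. The filter of 60 left out BGLU28, whose mean over the 8 arrays was 37.8. In the main fit, limma adjusted p was 0.0293 for BCAT4 and 0.0289 for BGLU28, both above 0.01. For the other settings the cause was not tested. The replicate block changed no call of a member (BCAT4 limma adjusted p = 0.0395).

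Signs turned for values near 0. When 1 array was left out, log2 fold changes were -0.04 to 0.22 for CYP79F1/CYP79F2, -0.11 to 0.05 for CYP83A1 (0.00 with median centring), -0.11 to 0.10 for MYB28, -0.03 to 0.13 for CYP83B1, -0.02 to 0.17 for MYC3, -0.04 to 0.05 for PYK10 (0.01 with median centring), 0.00 to 0.12 for SIR, -0.11 to 0.18 for HMT-1 (0.00 with a pseudocount of 30) and -0.11 to 0.11 for AT1G72810. Relative to CYP83B1 they were -0.16 to 0.09 for MYB28 (0.01 with quantile normalization), -0.14 to 0.17 for MYB29 (-0.01 with a pseudocount of 30), -0.10 to 0.25 for CYP79F1/CYP79F2 and -0.16 to 0.05 for CYP83A1. With 1 array left out, exact tests cannot go below 0.0571 and say nothing on stability. Low signal limits MYB29 and BGLU28.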
